A study of Mus musculus with 9 samples.

Results

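The 9 genes described here encode enzymes and a transporter that handle arginine, nitric oxide, polyamines and itaconate: Nos2, Gch1, Arg1, Arg2, Ass1, Asl, Slc7a2, Odc1 and Acod1. They were chosen by gene name, with earlier results of these data known, so their counts beside all tested genes are a description only. All 9 were present among 57238 entries of a deposited table of reads per gene. They also passed the filter on low counts that kept 15028 genes. The cells were bone marrow-derived dendritic cells (BMDCs) of wildtype C57BL/6 mice, made by culturing bone marrow with 20 ng/ml of the growth factor GM-CSF for 6 days according to the labels. Of 9 libraries, 3 came from untreated BMDCs (CTR), 3 from BMDCs given exosomes of normal cells (NE) and 3 from BMDCs given exosomes of tumor cells (TDE), both for 24 h. Exosomes are small membrane vesicles that cells release. The study took the normal exosomes from NIH 3T3, a mouse fibroblast line, and the labels do not name the tumor line. The comparisons ask how these genes differ between BMDCs given tumor exosomes, normal exosomes or none.

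Arginine stands at a branch point in myeloid cells. Nitric oxide synthase turns it into nitric oxide and citrulline, whereas arginase turns it into ornithine and urea, and ornithine feeds the polyamines. Citrulline can be rebuilt into arginine, and arginine enters the cell through cationic amino acid transporters. Itaconate is drawn from the citrate cycle in activated macrophages and dendritic cells, and it slows succinate dehydrogenase.

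The libraries held 17469782 to 21092943 estimated reads on genes. Levels are given as CPM, the reads of a gene scaled to library size by TMM, and 3 reads, the least taken here as detected, came to 0.135 to 0.190 CPM, which covers counting error only. CTR replicate 1 stood apart: its mean correlation with the other CTR libraries was 0.862, and the lowest among the other 8 libraries was 0.936. Results that changed most when it was left out are given both ways. The dendritic cell markers Itgax, Flt3 and Zbtb46 were read in all 9 libraries, whereas Cd209a had 0 to 3 reads per library. The labels do not say whether the 3 libraries of a group came from separate mice or cultures, so p-values measure only the spread between these libraries, which may be technical.

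Between TDE-treated and CTR BMDCs, 4 of the 9 genes rose and none fell, at an adjusted p under 0.05 by edgeR's quasi-likelihood test. Over all tested genes, 16.9% passed this test, 7.57% as higher and 9.34% as lower. The 4 were Nos2, Slc7a2, Acod1 and Arg1, which had ratios of mean CPM of 330, 8.17, 5.14 and 2.40. They cover nitric oxide synthesis, arginine uptake, itaconate synthesis and arginine breakdown. Against NE-treated BMDCs, 5 of the 9 genes rose, the same 4 and Arg2, where 13.9% of all tested genes passed, 6.73% as higher and 7.21% as lower. Both comparisons use the same TDE libraries. Between NE-treated and CTR BMDCs none of the 9 passed, and of all 15028 genes none did (0%) by edgeR, whereas 487 (3.24%) had an unadjusted p under 0.05, 3 passed by DESeq2 and 18 by limma voom with sample quality weights.

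**Figure D1:**
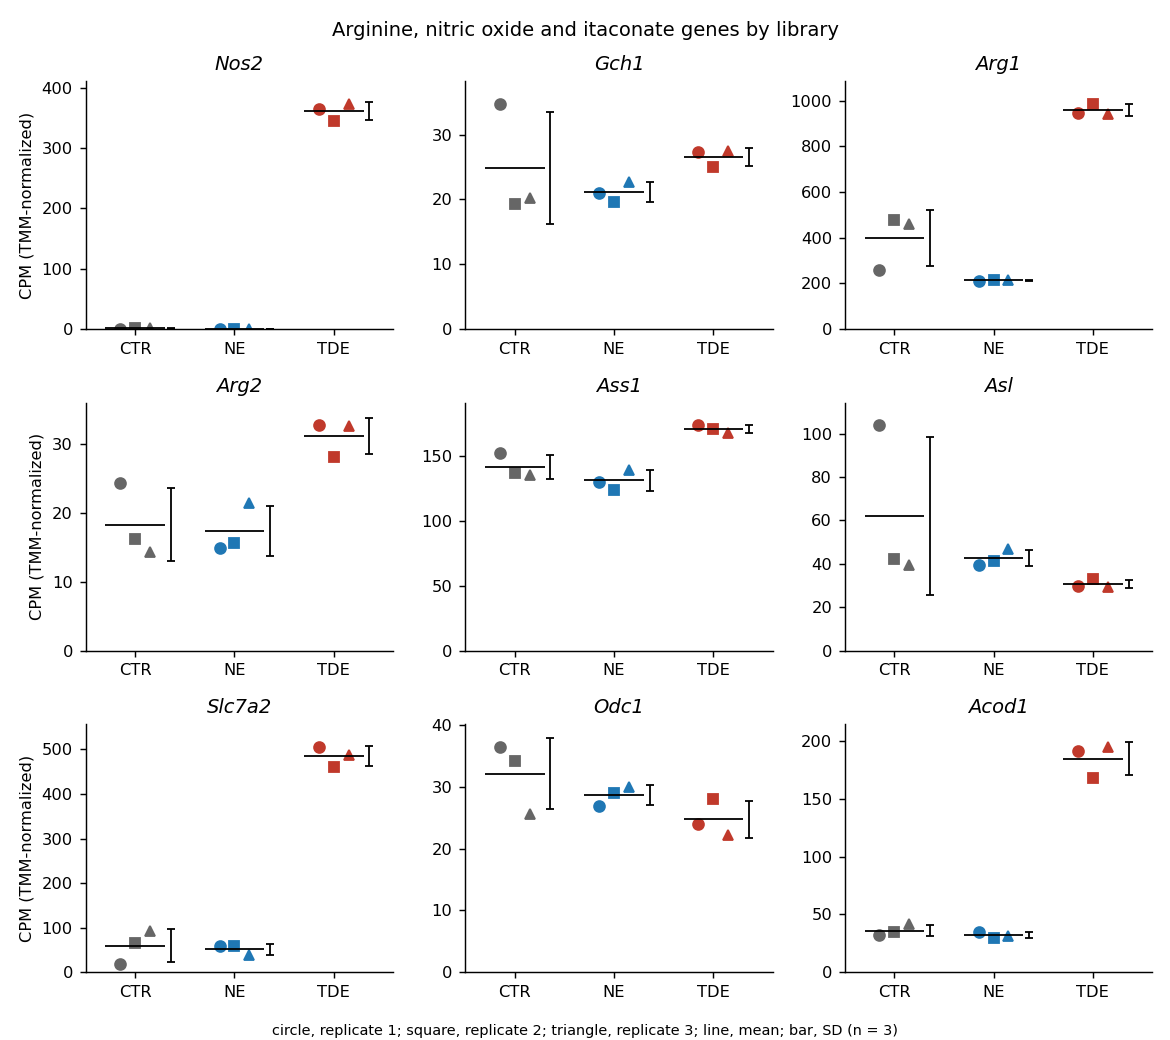
CPM of each gene (vertical axes, linear, from 0) in the 9 libraries, in groups CTR, NE and TDE, with a line at the mean and a bar of 1 SD (n = 3). The TDE libraries of Nos2, Arg1, Slc7a2 and Acod1 lie above all CTR and NE libraries, and CTR replicate 1 (circle) lies apart from the other CTR libraries for Gch1, Arg1, Asl and Slc7a2.

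Promoter sequences show what lies before the start of these genes. A table of RefSeq promoters (GRCm38.p6) held 4 of the 9 genes, Acod1, Ass1, Gch1 and Odc1, each with 250 bases before the start site and 50 after it. Nos2, Arg1, Arg2, Asl and Slc7a2 were not in the promoter table used here. Acod1 is shown because it rose, and Ass1 and Gch1 because they did not pass against CTR and stand beside Nos2 in the pathway. Capitals mark matches to the letters TATAAA (the TATA box), ACGTG (the core of hypoxia response elements) or CACGTG (an E-box, which holds ACGTG on both strands).
Acod1, chr14:103046762-103047061, plus strand: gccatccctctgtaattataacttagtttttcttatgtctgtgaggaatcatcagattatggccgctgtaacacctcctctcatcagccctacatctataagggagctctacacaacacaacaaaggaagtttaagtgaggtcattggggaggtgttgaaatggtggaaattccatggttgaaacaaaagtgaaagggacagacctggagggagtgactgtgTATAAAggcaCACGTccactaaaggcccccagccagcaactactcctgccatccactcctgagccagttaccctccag
Ass1, chr2:31470020-31470319, plus strand: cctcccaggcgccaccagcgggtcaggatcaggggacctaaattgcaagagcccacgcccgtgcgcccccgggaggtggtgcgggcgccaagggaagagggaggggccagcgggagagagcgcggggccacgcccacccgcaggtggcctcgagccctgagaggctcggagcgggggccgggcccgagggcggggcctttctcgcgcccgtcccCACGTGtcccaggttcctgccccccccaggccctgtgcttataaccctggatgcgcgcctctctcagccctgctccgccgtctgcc
Gch1, chr14:47189364-47189663, minus strand: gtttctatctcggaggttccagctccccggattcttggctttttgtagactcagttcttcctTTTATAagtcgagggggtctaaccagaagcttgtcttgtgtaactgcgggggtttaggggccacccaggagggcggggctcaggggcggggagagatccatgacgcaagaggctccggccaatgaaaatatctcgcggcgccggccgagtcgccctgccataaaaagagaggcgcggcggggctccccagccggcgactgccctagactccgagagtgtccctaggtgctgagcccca

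In Acod1, TATAAA lay 28 to 23 bases before the start site, and the capitals after it are ACGTG on the other strand, 18 to 14 bases before it. The Ass1 promoter held CACGTG 36 to 31 bases before its start. The Gch1 promoter held TATAAA on the other strand, 188 to 183 bases before its start, and the Odc1 promoter held no match to any motif searched. Both strands were searched. Of 32851 promoters of the same length, 13.6% held TATAAA, 19.6% ACGTG and 7.15% CACGTG. No match to NF-kB (GGG and TTTCC, 2 bases apart), GAS (TTCNNNGAA), ISRE core (a pair of GAAA, 2 bases apart), C/EBP (TTGCNNAA) or AP-1 (TGANTCA) letters was in the 4 windows, and 1.63%, 8.3%, 3.44%, 10.8% and 7.81% of all promoters held one. A match is a run of letters and not a shown site of binding.

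Nos2, the inducible nitric oxide synthase, went from a low level of 1 to 34 reads per library in CTR and NE to an abundant transcript in TDE. It lies at chr11:78920787-78960254 (GRCm38, plus strand). Its reads numbered 3, 34 and 31 in CTR replicates 1 to 3, 10, 1 and 9 in the NE libraries and 6600, 6321 and 7160 in the TDE libraries. In CPM these were 0.190, 1.54 and 1.56, then 0.531, 0.0542 and 0.448, then 366, 345 and 374. All 3 TDE libraries were far above the other 6, whereas CTR replicate 1 was at the floor of 3 reads and NE replicate 2 under it. The log2 fold change of TDE over CTR was 8.32 (SE 0.724, 95% interval 6.66 to 9.97, edgeR adjusted p = 3.37e-04), and over NE it was 9.999 (SE 0.798, adjusted p = 1.83e-04). CTR replicate 1 held 0.123 times the mean Nos2 CPM of the other CTR libraries, and without it the ratio of mean CPM fell from 330 to 233.

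Gch1 makes tetrahydrobiopterin, a cofactor that nitric oxide synthases need, by its first and rate-limiting step. Unlike Nos2, it did not pass the test against CTR. Its CPM was 34.8, 19.4 and 20.3 in CTR, 21.02, 19.7 and 22.7 in NE and 27.3, 25.0 and 27.4 in TDE libraries. The TDE libraries lay above CTR replicates 2 and 3 and all NE libraries, but below CTR replicate 1. Against CTR the log2 fold change was 0.10 (95% interval -0.41 to 0.61, edgeR adjusted p = 0.759). Without CTR replicate 1 it was 0.41 (adjusted p = 0.00834), where 34.4% of all tested genes passed. Without CTR replicate 2 it was -0.04 and without CTR replicate 3 it was -0.02. Gch1 lies at chr14:47153895-47189413 (GRCm38, minus strand).

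Arg1, the cytosolic arginase, had the highest level per kilobase of the 9 genes in all 3 groups and was the gene in which the NE and CTR libraries did not overlap. It lies at chr10:24915221-24927484 (GRCm38, minus strand). Its CPM was 258, 479 and 462 in CTR, 209, 214 and 216 in NE and 948, 988 and 943 in TDE libraries. Every TDE library was above every other library, and every NE library was below every CTR library. Arg1 rose in TDE-treated BMDCs, with a log2 fold change of 1.26 over CTR (SE 0.227, 95% interval 0.75 to 1.78, edgeR adjusted p = 0.00781) and 2.17 over NE (SE 0.233, adjusted p = 7.69e-04). Without CTR replicate 1 the ratio of mean CPM over CTR was 2.04 in place of 2.40.

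Between NE-treated and CTR BMDCs, Arg1 did not pass, at -0.91 on the log2 scale (SE 0.225, edgeR adjusted p = 0.659). Without CTR replicate 1, the fold change was -1.15 (SE 0.0641, adjusted p = 4.46e-04), and Arg1 was then 1 of 3 genes that passed among 15301 tested (0.0196%). The others were Ak4 (-1.41), an adenylate kinase, and Egln3 (-1.12), an oxygen-sensing prolyl hydroxylase. Both are known hypoxia-responsive genes, and whether hypoxia had a part in these differences was not tested. Egln3 was named after its value was seen. With limma voom and sample quality weights, the Arg1 fold change was -1.16 (adjusted p = 9.84e-06). The other 8 genes overlapped between NE and CTR libraries, with log2 fold changes from -1.68 for Nos2 (SE 0.732, edgeR adjusted p = 0.659) to -0.08 for Arg2. The sign of this fold change turned under at least 1 alternative for Gch1, Arg2, Ass1, Asl and Slc7a2.

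Arg2, the mitochondrial arginase, was measured far below Arg1. Its CPM was 24.4, 16.2 and 14.4 in CTR, 14.9, 15.7 and 21.5 in NE and 32.8, 28.2 and 32.6 in TDE libraries, so that the TDE libraries lay above all others. The log2 fold change was 0.85 over NE (SE 0.231, edgeR adjusted p = 0.0446), and 0.77 over CTR (SE 0.231, adjusted p = 0.0545), which did not pass. The call against NE was lost without CTR replicate 2 (adjusted p = 0.0630), NE replicate 1 (0.160) or NE replicate 2 (0.155), and without TDE replicate 1 (0.142), 2 (0.0937) or 3 (0.141). It was also lost without a filter on low counts (0.0516), and with replicate number as a block it was 0.1001. Without CTR replicate 1, Arg2 passed against CTR at 1.02 (adjusted p = 0.00138), where 34.4% of all tested genes did. Exons of Arg2 (chr12:79130777-79156301, GRCm38, plus strand) share 285 bases with Vti1b and 116 with Gm48780 on the other strand, and its reads were fractional in all 9 libraries, so its level is uncertain.

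**Figure D2:**
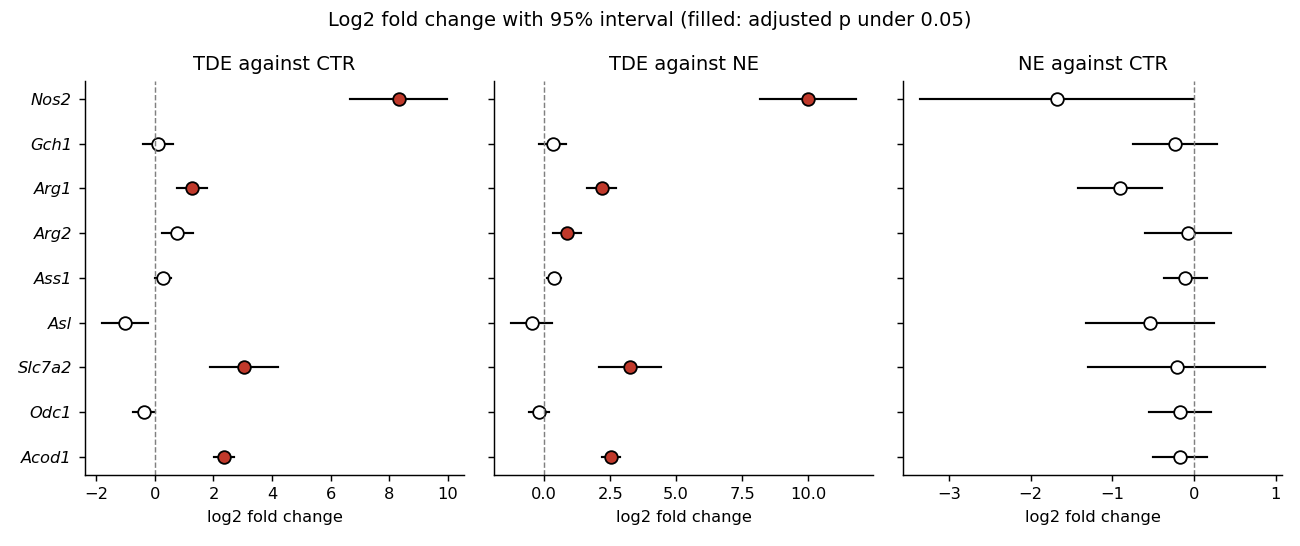
Log2 fold change (horizontal axes) of each gene with its 95% interval from the edgeR fit to all 9 libraries, filled where the adjusted p was under 0.05. Nos2, Arg1, Slc7a2 and Acod1 are filled to the right of 0 against both CTR and NE, Arg2 only against NE, and no gene is filled in NE against CTR.

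The balance of Nos2 to Arg1 reads per kilobase, which does not depend on library size, also separated the TDE libraries. There were 7.35, 8.12 and 7.15 Arg1 reads per Nos2 read and kilobase in TDE, 3846, 885 and 838 in CTR and 1117, 11185 and 1370 in NE libraries. The log2 ratio of Nos2 to Arg1 was -2.91 ± 0.0967 (SD, n = 3) in TDE, -10.47 ± 1.25 in CTR and -11.33 ± 1.84 in NE libraries. TDE exceeded CTR by 7.56 and NE by 8.42 (exact permutation test, two-sided, p = 0.1 for both, which is the smallest p that 3 against 3 libraries allow). The NE and CTR libraries overlapped (difference -0.86, exact p = 0.5). Arg1 remained the more abundant transcript per kilobase in all 9 libraries.

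Ass1 and Asl rebuild arginine from citrulline, and neither passed edgeR's test on all 9 libraries against CTR or NE. Ass1 (chr2:31470207-31520672, GRCm38, plus strand) had 152, 137 and 135 CPM in CTR, 130, 124 and 140 in NE and 174, 171 and 168 in TDE libraries. Its TDE libraries were above all others, with a log2 fold change of 0.27 over CTR (95% interval 0.01 to 0.54, edgeR adjusted p = 0.132) and 0.38 over NE (adjusted p = 0.0647). Asl (chr5:130011258-130029247, GRCm38, minus strand) went the other way, with 104, 42.4 and 39.7 CPM in CTR, 39.6, 41.4 and 46.9 in NE and 29.9, 32.9 and 29.1 in TDE libraries. Its TDE libraries lay below all others, and CTR replicate 1 held 2.53 times the mean of the other CTR libraries. The log2 fold change of Asl was -1.02 over CTR (95% interval -1.81 to -0.23, edgeR adjusted p = 0.0793) and -0.48 over NE (adjusted p = 0.459). Without CTR replicate 1 both passed against CTR, Ass1 at 0.32 (adjusted p = 0.00926) and Asl at -0.43 (adjusted p = 0.00865), and without CTR replicate 3 Asl passed at -1.25 (adjusted p = 0.0325). Both also passed against CTR by DESeq2 (adjusted p = 0.0309 for Ass1 and 0.0392 for Asl) and by voom (4.72e-04 and 6.45e-04). Against NE, both passed without CTR replicate 1 (0.00187 for Ass1 and 0.00232 for Asl) and by voom (1.25e-05 and 3.66e-04). They also passed in the 6 libraries of the pair (0.00321 and 0.00418), and Ass1 passed by DESeq2 (0.00171). Many genes passed in these settings. Against CTR, 34.4% did without CTR replicate 1, 25.6% without CTR replicate 3, 20.6% by DESeq2 and 52.5% by voom. Against NE, 40.7% did without CTR replicate 1, 55.3% by voom, 41.9% in the pair and 15.6% by DESeq2.

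Slc7a2, a cationic amino acid transporter that brings arginine into the cell, rose with Nos2. Its CPM was 19.1, 66.2 and 93.0 in CTR, 58.0, 58.8 and 37.5 in NE and 506, 461 and 488 in TDE libraries. CTR replicate 1 was the lowest library, and every TDE library was above the others. The log2 fold change was 3.03 over CTR (SE 0.509, 95% interval 1.86 to 4.19, edgeR adjusted p = 0.00608) and 3.24 over NE (SE 0.514, adjusted p = 0.00456). Without CTR replicate 1 the ratio of mean CPM over CTR was 6.10 in place of 8.17. The related transporter Slc7a1 did not pass, with 8.82 CPM in CTR, 11.6 in NE and 10.5 in TDE libraries and a log2 fold change over CTR of 0.24 (SE 0.279, adjusted p = 0.547), which was -0.03 without CTR replicate 1. Slc7a2 lies at chr8:40862396-40922308 (GRCm38, plus strand), and its exons share 635 bases with Gm26584 on the other strand. Its reads were whole numbers in only 3 libraries and fractional in the others, among them all TDE libraries.

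Odc1, ornithine decarboxylase, makes putrescine, the first polyamine, from the ornithine that arginase releases. By edgeR on all 9 libraries it did not pass in any of the 3 comparisons. Its reads were whole numbers in only 1 library and fractional in the others. Its CPM was 36.5, 34.2 and 25.6 in CTR, 26.9, 29.0 and 30.0 in NE and 24.0, 28.1 and 22.3 in TDE libraries, and the groups overlapped. The log2 fold change was -0.37 over CTR (95% interval -0.75 to 0.01, edgeR adjusted p = 0.148) and -0.21 over NE (95% interval -0.59 to 0.17, adjusted p = 0.515). Without CTR replicate 3 it was -0.51 over CTR (adjusted p = 0.0432), where 25.6% of all tested genes passed. By limma voom it was -0.42 over CTR (adjusted p = 0.00781), where 52.5% passed. Odc1 lies at chr12:17544794-17551505 (GRCm38, plus strand).

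Acod1 makes itaconate from cis-aconitate, and among the 9 genes it had the lowest adjusted p in both TDE comparisons. Its CPM was 31.8, 34.6 and 41.6 in CTR, 34.8, 29.8 and 31.6 in NE and 191, 168 and 195 in TDE libraries. The CTR and NE libraries overlapped, and the TDE libraries lay far above both. The log2 fold change was 2.36 over CTR (SE 0.151, 95% interval 2.02 to 2.71, edgeR adjusted p = 8.72e-05) and 2.53 over NE (SE 0.152, adjusted p = 5.23e-05). Acod1 lies at chr14:103046977-103056573 (GRCm38, plus strand), with no exon shared with another gene.

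Read without regard to the test, the TDE libraries lay above all CTR libraries for 6 of the 9 genes, below them for 1 and overlapped for 2, where 22.2% of all tested genes were wholly above and 21.8% wholly below. Against NE libraries the counts were 7 above, 1 below and 1 overlapping, where 26.8% and 27.7% of all tested genes were wholly above or below. Between NE and CTR, 1 gene (Arg1) lay wholly lower, where 3.67% of all tested genes did, and none lay wholly higher, where 4.05% did. The summed CPM of the 9 genes was 661 to 833 in CTR, 532 to 546 in NE and 2248 to 2299 in TDE libraries.

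More of the 9 genes passed when CTR replicate 1 was left out. Without it, 8 passed between TDE-treated and CTR BMDCs, all except Odc1, with 7 higher and Asl lower, where 34.4% of 15301 tested genes passed. Against NE, 8 passed as well (7 higher, 1 lower), where 40.7% of genes did. Nos2, Arg1, Slc7a2 and Acod1 rose under all 17 alternatives that gave each a value, against CTR and against NE.

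**Figure D3:**
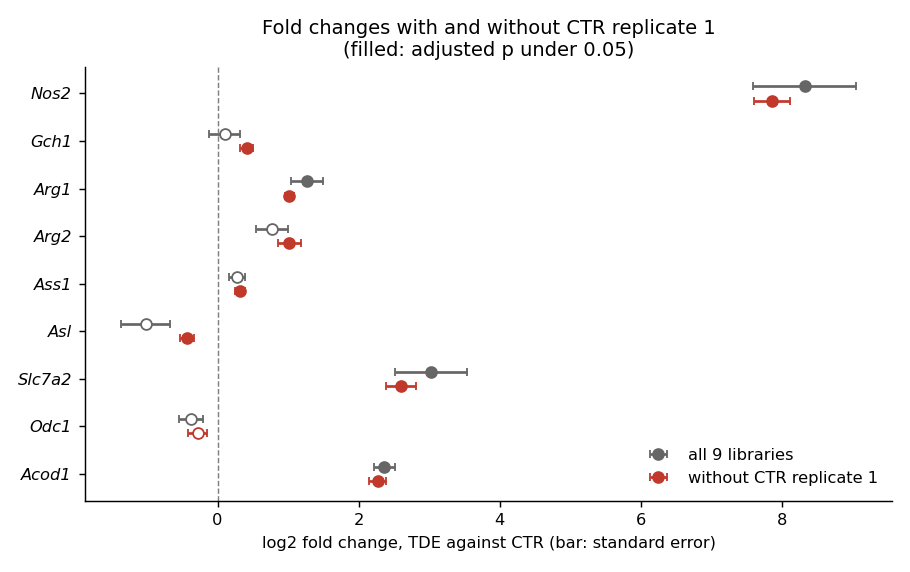
Log2 fold change of TDE over CTR (horizontal axis) with its standard error, from all 9 libraries (grey) and without CTR replicate 1 (red), filled where the adjusted p was under 0.05. Grey is filled for 4 genes and red for 8, with Odc1 open in both.

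Per kilobase of gene length, the order of the 9 genes differed between groups. In CTR BMDCs, the mean CPM per kilobase was 270 for Arg1, 83.4 for Ass1 and 34.0 for Asl. The other genes lay between 16.1 for Slc7a2 and 8.94 for Gch1, except Nos2 at 0.262. Each pair of neighbours from Asl down to Gch1 (Asl, Slc7a2, Odc1, Acod1, Arg2, Gch1) overlapped between CTR libraries. The mean CPM per kilobase over CTR replicates 2 and 3 was 22.5 for Asl and 21.6 for Slc7a2, and Acod1 (14.5) came before Odc1 (13.5). In TDE-treated BMDCs the order in CPM per kilobase was Arg1 (650), Slc7a2 (132), Ass1 (101), Nos2 (86.3), Acod1 (70.5), Arg2 (21.8), Asl (16.8), Odc1 (11.2) and Gch1 (9.57). No neighbours in that order overlapped between TDE libraries. In NE-treated BMDCs the mean CPM per kilobase ran from 144 for Arg1 to 0.0821 for Nos2, in the same order as over the 3 CTR libraries.

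**Figure D4:**
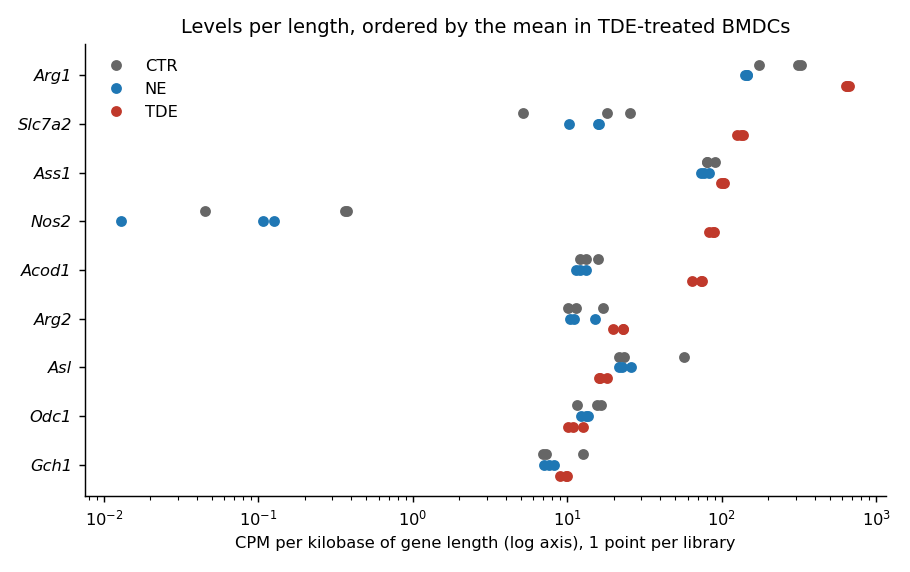
CPM per kilobase of gene length (horizontal, log axis), 1 point per library, with genes ordered by the TDE mean. Nos2 moves from under 1 in the CTR and NE libraries to 82.3 to 89.2 in the TDE libraries, and Arg1 is highest in every group.

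The genes whose log2 CPM followed a member most closely over the 9 libraries were found by Pearson's r. For Nos2, Arg1 and Acod1 it reflects mainly the difference between the TDE and the other 6 libraries. The groups overlapped for Odc1, so its r also reflects spread within groups. For Nos2 they were C1s1 (r = 0.997), Pim3 (0.991) and Sdc1 (0.991). For Acod1 they were Clmp (r = 0.999), Plod1 (0.997) and Lox (0.996). For Arg1 they were Ak4 (r = 0.987), P4ha2 (0.983) and Bnip3 (0.971), with Ak4 at 10.3, 4.78 and 67.9 mean CPM in CTR, NE and TDE libraries, in the same order of groups as Arg1. For Odc1 they were Uchl3 (r = 0.940), Ly86 (0.931) and Dnajc7 (0.931).

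Around Nos2, other genes of nitric oxide and tetrahydrobiopterin metabolism passed in both directions. Of 12 tested, 2 rose and 3 fell between TDE-treated and CTR BMDCs (41.7%, where 16.9% of all tested genes passed), and the median log2 fold change was -0.61, against -0.05 over all tested genes. Leaving out CTR replicate 1 gave 3 that rose and 4 that fell, with a median of -0.20, where 34.4% of all tested genes passed. Without CTR replicate 2, 1 rose and 2 fell, and without each NE library in turn, 2 rose and 1 fell. None passed without TDE replicate 1, 2 or 3 or in the 6 libraries of the pair, and 1 rose and none fell with the replicate block. The genes that fell in the 9 libraries include Spr (-1.64, edgeR adjusted p = 0.0471) and Qdpr, which make and regenerate tetrahydrobiopterin. Spr had 90.4, 29.7 and 24.1 CPM in CTR and 13.6, 15.8 and 16.9 in TDE libraries, and its fold change was -0.81 without CTR replicate 1 (adjusted p = 0.00748). The third gene that fell was Gucy1a1 (-1.75, adjusted p = 0.0321), a subunit of the nitric oxide receptor guanylate cyclase. The genes that rose were Nos1ap (1.19, adjusted p = 0.0250), an adaptor of neuronal nitric oxide synthase, and Cyb5r4 (1.001, adjusted p = 0.0140), a cytochrome b5 reductase. Nos1, Nos3 and Gchfr, which binds the Gch1 enzyme, were too low to be tested. Nos1 had 0 to 3 reads, Nos3 0 to 5 and Gchfr 0 to 12 reads per library.

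Around Arg1 and Slc7a2, 16 genes of arginine transport, the urea cycle and proline were tested, and 2 rose and 1 fell against CTR (18.8%), with a median of 0.12. When CTR replicate 1 was left out, 4 rose and 2 fell, with a median of 0.01, where 34.4% of all tested genes passed. Without CTR replicate 3, 2 rose and 3 fell, where 25.6% did. Gatm, which uses arginine to make the creatine precursor, rose by a log2 fold change of 2.28 (SE 0.254, edgeR adjusted p = 9.78e-04). Its CPM was 5.96, 11.4 and 12.2 in CTR, 12.6, 11.4 and 13.8 in NE and 48.5, 48.8 and 46.3 in TDE libraries. Slc25a15, the mitochondrial ornithine carrier, rose by 0.81 (adjusted p = 0.00642), and Prodh, which breaks down proline, was at -0.94 (adjusted p = 0.0115). The urea cycle genes Otc and Cps1 had 0 reads in all 9 libraries.

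Around Odc1, 1 of 18 tested polyamine and hypusine genes rose against CTR and 3 fell (22.2%), with a median of -0.06. The counts were 4 and 5 without CTR replicate 1, with a median of 0.01, where 34.4% of all tested genes passed. They were 1 and 5 without CTR replicate 3, where 25.6% passed. Without each TDE library in turn they were 1 and 1, where 7.15% to 7.63% passed. Srm, which makes spermidine from putrescine, fell by 1.85 on the log2 scale (edgeR adjusted p = 0.0136), and its CPM was 18.6, 9.26 and 6.41 in CTR, 7.32, 6.40 and 7.36 in NE and 2.605, 3.93 and 2.93 in TDE libraries. Mat2a, which makes S-adenosylmethionine, had -0.97 (adjusted p = 0.00829), and Smox, spermine oxidase, rose by 0.70 (adjusted p = 0.00372). Amd1 (0.32, adjusted p = 0.199), the antizyme gene Oaz1 (-0.73, adjusted p = 0.233) and the antizyme inhibitor gene Azin1 (0.71, adjusted p = 0.272) did not pass. Oaz1 had 572 CPM and Azin1 20.6 CPM in CTR replicate 1, against 235 and 176 CPM and 82.9 and 85.7 CPM in the other CTR libraries. Without that library, Oaz1 was at -0.07 (adjusted p = 0.818), whereas Azin1 passed at 0.28 (adjusted p = 0.0207).

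Around Acod1, 3 of 27 citrate cycle and itaconate genes rose and none fell in the 9 libraries (11.1%, below the 16.9% of all tested genes), with a median of 0.03. With CTR replicate 1 left out, 8 rose and 3 fell, with a median of 0.10, where 34.4% of all genes passed, and without CTR replicate 3, 3 rose and 2 fell. The 3 that fell without CTR replicate 1, named after their values were seen, were Aco1 (-0.54), Idh3a (-0.46) and Suclg1 (-0.31). Without CTR replicate 2, and without each NE or TDE library in turn, 1 rose and none fell. The genes that rose in the 9 libraries were Clybl (1.12, adjusted p = 0.0116), which clears a product of itaconate breakdown, the transporter Abcg2 (0.66, adjusted p = 0.0361) and citrate synthase, Cs (0.44, adjusted p = 0.0399).

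Among 23 known regulators of Nos2, Arg1 and Acod1, 4 rose and 2 fell against CTR (26.1%), with a median of 0.12. Of these 23, 6 rose and 6 fell without CTR replicate 1, where 34.4% of all tested genes passed, and the median was -0.07. Without NE replicate 1 or 2, or each TDE library in turn, 2 rose and 1 fell, and without CTR replicate 2, 3 rose and 1 fell. Nfkbiz, a nuclear regulator of NF-kB targets, rose by 2.94 (edgeR adjusted p = 1.32e-04), and the nuclear receptor Ppard rose by 0.93 (adjusted p = 0.00313). The nuclear receptor Pparg was at -1.81 (adjusted p = 3.37e-04) and Myc at -0.57 (adjusted p = 0.0259).

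Of 17 classical activation markers, 10 rose and 1 fell (64.7%), with a median of 0.85. The counts without CTR replicate 1 were 13 and 1, with a median of 0.95, where 34.4% of all tested genes passed. Ptgs2, the inducible cyclooxygenase, was at 5.89 (adjusted p = 6.13e-05), the interleukin 12 subunit gene Il12a at 5.12 (adjusted p = 0.00225) and the costimulatory gene Cd86 at -0.67 (adjusted p = 0.0108). Of 16 alternative activation markers, 3 rose and 8 fell (68.8%), with a median of -0.70. These were 5 and 10 without CTR replicate 1, with a median of -0.79, where 34.4% of all tested genes passed. Without TDE replicate 1, 2 or 3, 2 rose and 3, 4 or 5 fell, where 7.18%, 7.63% or 7.15% passed. Il10 was at 5.35 (adjusted p = 0.00664) and Pdcd1lg2 at 1.003 (adjusted p = 0.0255), whereas the chemokine gene Ccl24 was at -4.48 (adjusted p = 0.0120, and -3.11 without CTR replicate 1) and the lectin gene Mgl2 at -4.10 (adjusted p = 6.98e-05). Arg1, often grouped with the alternative markers, was at 1.26 and Nos2, often grouped with the classical ones, at 8.32.

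The 7 lists, also chosen with earlier results of these data known, held 12, 16, 18, 27, 23, 17 and 16 tested genes in the order given above. Over them, 43 genes passed against CTR, 40 against NE and 0 between NE and CTR. Of all tested genes, 16.9%, 13.9% and 0% passed in these comparisons. Against CTR the count was 74 without CTR replicate 1, where 34.4% of all tested genes passed. The count was 22, 24 and 24 without TDE replicate 1, 2 and 3, where 7.18%, 7.63% and 7.15% passed. With replicate number as a block it was 28, where 8.55% passed. Against NE, it was 74 without CTR replicate 1, where 40.7% passed, and 26 and 25 without NE replicates 1 and 2, where 7.35% and 7% did. It was 26 without each of the TDE libraries in turn, where 6.49%, 6.72% and 6.29% passed.

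**Figure D5:**
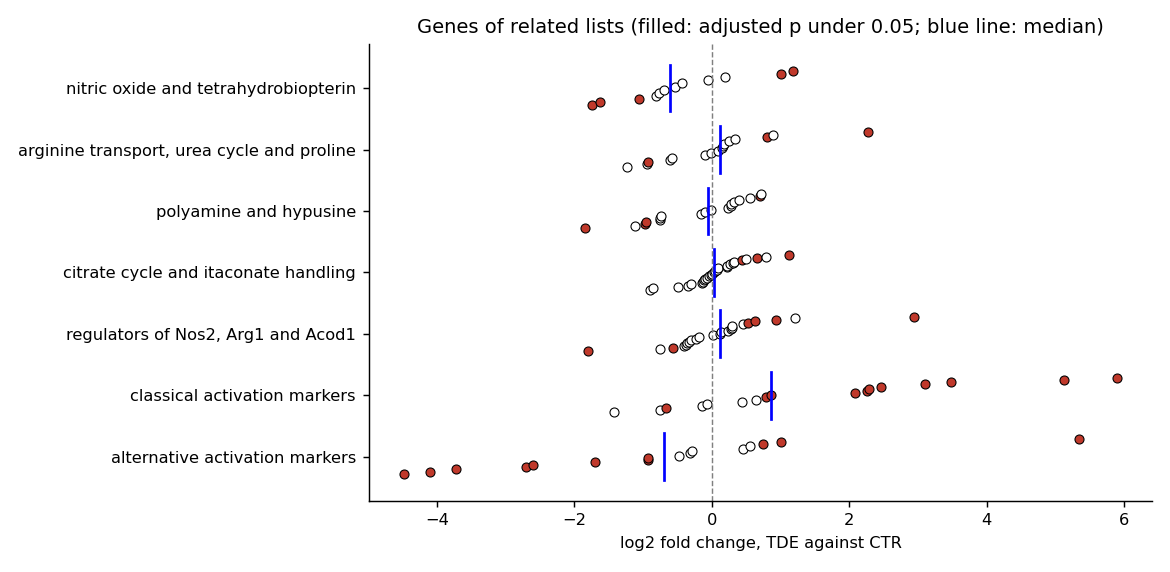
Log2 fold change of TDE over CTR (horizontal axis) of each tested gene in 7 related lists, filled where the adjusted p was under 0.05, with a blue line at the list median. Medians lie between -0.70 for alternative and 0.85 for classical activation markers.

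Markers of other cells moved with the TDE libraries. Between TDE-treated and CTR BMDCs, 7 of 10 neutrophil, 6 of 6 eosinophil, 6 of 6 mast cell and basophil and 6 of 6 lymphocyte markers tested fell. Of all tested genes, 9.34% fell. CTR replicate 1 had the highest sums of the neutrophil, eosinophil and mast cell lists, and without it 9 of 10, 6 of 6, 6 of 6 and 7 of 7 fell. The remaining 1 neutrophil marker then rose, and 18% of all tested genes fell. The summed neutrophil markers were 5669 to 26749 CPM in CTR, 5887 to 8536 in NE and 2747 to 2999 in TDE libraries, and the eosinophil markers 429 to 1356, 452 to 513 and 99.8 to 125. The mast cell and basophil markers summed to 146 to 424, 161 to 230 and 36.2 to 42.0 CPM, with Mcpt4 at 0 in all 9 libraries. The lymphocyte markers summed to 91.7 to 126, 137 to 143 and 39.8 to 44.2 CPM, with Cd3d at 0 in the TDE libraries.

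The macrophage markers, on cells known to express Nos2, Arg1 and Acod1, summed to 4485 to 5461 CPM in CTR, 4352 to 4631 in NE and 5729 to 6113 in TDE libraries. Of 10 tested macrophage markers, 1 rose and 2 fell, where 7.57% and 9.34% of all tested genes did. Their median log2 fold change was -0.44. Without CTR replicate 1, 2 rose and 6 fell, where 16.4% and 18% of all tested genes did. Among them, Adgre1 rose (log2 fold change 2.56) and C1qb fell. Adgre1 had 3252 to 9895 reads in CTR and 38731 to 44247 in TDE libraries, which weighs on the summed CPM. Of 9 tested dendritic cell markers 5 fell and none rose (8 fell without CTR replicate 1), and their sums were 4116 to 12684, 3911 to 4894 and 2088 to 2212 CPM. Cd74 weighs on these sums, with 136888 reads in CTR replicate 1 against 58296 and 40770 in CTR replicates 2 and 3. Other markers of the list went the other way in CTR replicate 1, among them Itgax (2170 reads against 3387 and 3122) and Zbtb46 (247 against 441 and 385). Fibroblast markers summed to 6.28 to 6.96, 6.34 to 7.06 and 9.17 to 10.9 CPM, epithelial markers to 8.22 to 8.90, 10.9 to 12.7 and 4.37 to 7.05 CPM and erythroid markers to 0.656 to 11.2, 0.478 to 1.64 and 0.166 to 1.36 CPM. In these bulk libraries, fewer cells of a type and less RNA per cell cannot be told apart, and the part of cell makeup in the differences of the 9 genes was not tested.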

How the data were processed

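RNA of 9 BMDC libraries was sequenced, 3 per group (CTR, NE and TDE). The authors deposited estimated counts per gene, not normalized. The submitters' processing notes name TopHat2 2.1.1, DESeq2 1.24.0 and R 3.3.1, and the counter, genome build, annotation and strand setting are not given in the sources used here. The labels give 6 days of culture, whereas the study's methods give another length. The table also holds group means by the authors, which were not used. Its 1702 entries without a gene name are transcripts with an identifier of their own and were kept.

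Counts were rounded, filtered with filterByExpr and scaled by TMM, and 15028 genes were tested with edgeR 4.0.16 (R 4.3.3), with 1 mean per group over all 9 libraries. P-values were adjusted by Benjamini-Hochberg (threshold 0.05). The SE is the size of the log2 fold change divided by the square root of F. Log2 CPM used a prior count of 1, and genes compared for likeness had a mean of at least 5 CPM. Lengths for CPM per kilobase came from the table, positions and exon overlaps from GENCODE vM21 (GRCm38), whose build may differ from that of the authors. The code was tested on simulated data.

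Alternatives were DESeq2 1.42.0, limma voom (limma 3.58.1) with sample quality weights, median-ratio factors, library totals, no filter or a mean of at least 10 reads, the 6 libraries of a pair of groups, a replicate block, each library left out, a log2 fold change of at least 1 and, for the Nos2 to Arg1 ratio, 0.5 added reads. Named were all 9 members, for each list the 2 highest and 2 lowest genes that passed against CTR, direct partners of members, and for 4 members the 3 genes most like them. Qdpr, Egln3, Aco1, Idh3a, Suclg1, Adgre1 and C1qb were named after their values were seen, and the result of 1 macrophage marker is not reported here. The members and lists were chosen with earlier results of these data known.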

Additional observations from a re-analysis of the deposited data

How the results depend on the processing

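Nos2, Arg1, Slc7a2 and Acod1 kept their direction and passed under all 17 alternatives against CTR and against NE. The number of the 9 genes that passed against CTR (4) was 7 by DESeq2 (20.6% of all genes with an adjusted p passed, 3731 of 18116), 9 by voom (52.5%) and 4 to 8 with 1 library left out (8 without CTR replicate 1, where 34.4% of all genes passed). Against NE (5), it was 8 by voom (55.3%), 8 in the 6 libraries of the pair (41.9%) and 4 to 8 with 1 library left out (8 without CTR replicate 1, 40.7%). Between NE and CTR (0), it was 1 by voom (0.12%) and 0 to 1 with 1 library left out.

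Genes passing against CTR (2541) numbered 7886 by voom, 1152 in the 6 libraries, 1285 with the replicate block, 1583 at a log2 fold change of at least 1 and 1103 to 5263 with 1 library left out. Against NE (2095) they numbered 8311, 6072, 1175, 1307 and 970 to 6223. Between NE and CTR (0) they numbered 3 by DESeq2, 18 by voom and 0 to 3 with 1 library left out. Listed genes passing against CTR (43) numbered 88 by voom, 24 in the 6 libraries, 28 with the replicate block, 26 at a log2 fold change of at least 1 and 22 to 74 with 1 library left out. Against NE (40) they numbered 97 by voom, 74 in the 6 libraries, 25 at a log2 fold change of at least 1 and 25 to 74 with 1 library left out, and between NE and CTR (0) 1 by voom.

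Directions turned for values that had not passed. Gch1 over CTR ran from -0.0433 (without CTR replicate 2) to 0.413 (without CTR replicate 1), and was also below 0 without CTR replicate 3 (-0.0178). Between NE and CTR, with 1 library left out, Gch1 ran from -0.373 to 0.0915, Arg2 from -0.276 to 0.182, Asl from -0.768 to 0.0543 and Slc7a2 from -0.632 to 0.270. Gch1 was 0.0595 by voom, and with library totals Arg2 was 0.0976 and Ass1 0.0300. Library totals put the median of all genes between NE and CTR at 0.12, so Arg2 and Ass1 lay below it. The Nos2 to Arg1 log2 ratio between NE and CTR was -1.58 to 0.20 with 1 library left out. The cause was not tested.

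The labels give same-numbered libraries nothing in common but the number. Their mean correlation after removal of group means was -0.0029 for TDE and CTR, -0.0240 for TDE and NE and -0.244 for NE and CTR. For NE and CTR single values ran from -0.555 to 0.168. Of 3 libraries, 1, 1 and 0 correlated best with their own number. With 3 libraries per group these values cannot tell whether same-numbered libraries shared a mouse or culture. With the replicate block the call of Arg2 against NE was lost (adjusted p = 0.1001), and no other call of the 9 genes changed. Depth limits Nos2 in CTR and NE, where 1 to 34 reads carry each value.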
